A study of Mus musculus with 10 samples.

Results

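Among the 54232 genes of the deposited table, 10 genes code for the alpha and beta tubulins considered here: Tuba1a, Tuba1b, Tuba1c and Tuba8 for alpha tubulin, and Tubb2a, Tubb2b, Tubb3, Tubb4b, Tubb5 and Tubb6 for beta tubulin. They were chosen by gene symbol, and all 10 were among the 14289 genes with enough signal to be tested. RNA had been sequenced from the gastrocnemius, a calf muscle that the study elsewhere names together with the adjoining plantaris, of 5 desmin knock-out mice (genotype Des -/-) and 5 wild-type littermates (Des wt/wt), all 3 months old and of the strain B6J.129Sv-Destm1Cba/Cscl. The knock-out is germline, so that every cell type of the muscle lacks desmin and not the muscle fibers alone. The study's methods speak of pooled RNA, whereas the table has a column for each of the 10 mice, and each column was used as 1 mouse. All values are regularized log (rlog) values on the log2 scale, made comparable between libraries and shrunken for weakly expressed genes, so that their differences understate log2 fold changes of the reads.

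Tubulin is the building block of microtubules. One alpha and one beta tubulin protein pair to a dimer, and dimers add to and leave the ends of the hollow polymer. Skeletal muscle fibers have a grid of microtubules below the surface membrane and a dense shell of them around each nucleus, and this network is known to be disordered in dystrophic muscle. Desmin is the main intermediate filament protein of muscle and links myofibrils to each other, to the nuclei and to the surface membrane. Vertebrates have several alpha and beta tubulin genes whose proteins differ mainly in their last residues, the acidic tail that enzymes modify and motors touch.

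Des itself, which checks the labels, lay between 11.76 and 11.89 in desmin knock-out mice and between 16.10 and 17.74 in wild-type mice, with a difference of -4.73 (SE 0.25). Wild-type mouse 3 stood apart from the other mice. The sum of its values on the linear scale was 1.48 times the median of all mice, against 0.949 to 1.06 in the other 9, and its 20 most abundant genes held 46.7% of that sum, against 35.9% to 39.5%. Results are given with all mice. They are also given without this mouse where leaving it out changed the count of a list or markedly moved the value of a tubulin gene.

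The coding regions show why the genes can be told apart to different degrees. Between members of the alpha class, 78.8% to 98.3% of the aligned coding bases were identical, within the beta class 80.2% to 96.5%, and between the classes 50.8% to 55.1%. Tuba1a and Tuba1b were the closest pair (98.3%), Tubb2a and Tubb2b the closest beta pair (96.5%). Stretches of 50 bases were taken from a single annotated transcript of each gene. Of these, 52.0% in Tuba1a, 64.6% in Tuba1b and 59.8% in Tuba1c also occurred in the transcript of another of the 10 genes. The share was 45.6% in Tubb2a, 33.4% in Tubb2b and 0.0385% in Tubb5, with none in Tuba8, Tubb3, Tubb4b and Tubb6. Genes outside the 10 were not searched for shared stretches. A short read from a shared stretch has no single origin, and how such reads were counted is not given in the sources used here. The levels of Tuba1a, Tuba1b, Tuba1c, Tubb2a and Tubb2b are therefore uncertain as separate genes.

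The start of each coding region matters because cells adjust tubulin mRNA to the amount of free tubulin by reading the first residues of the nascent protein, a control known as tubulin autoregulation. The coding starts below are those of GENCODE M21 on GRCm38, 5′ to 3′ on the coding strand, with the first 4 codons in capitals.
Tuba1a: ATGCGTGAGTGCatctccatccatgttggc
Tuba8: ATGAGGGAATGCatatcggtccatgtgggt
Tubb2a: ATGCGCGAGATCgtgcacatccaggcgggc
Tubb2b: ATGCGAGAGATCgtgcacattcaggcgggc
Tubb4b: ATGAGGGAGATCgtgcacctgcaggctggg
Tubb5: ATGAGGGAAATCgtgcacatccaggccgga
The capitals spelled 2 different starts among the 4 alpha genes and 5 among the 6 beta genes, yet they coded for 1 peptide in each class.

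The end of the alpha genes is the substrate of the tyrosine cycle, in which vasohibins remove a last tyrosine from alpha tubulin and tubulin tyrosine ligase puts it back. The coding ends of Tuba1c and Tuba8 below are from the same annotation, with the last codon before the stop codon in capitals.
Tuba1c: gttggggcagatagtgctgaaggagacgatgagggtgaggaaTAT
Tuba8: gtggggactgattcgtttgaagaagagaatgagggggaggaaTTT
Tuba1c ended in a tyrosine codon (TAT), and Tuba8, the alpha gene known for its expression in striated muscle, brain and testis, ended in a phenylalanine codon (TTT).

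Tubb6 was the one tubulin gene that differed between the genotypes at an adjusted p under 0.05, and it rose in desmin knock-out muscle. One of 10 tubulin genes was called higher and 0 lower (limma, Benjamini-Hochberg adjustment over all tested genes), beside 7.7% of all tested genes called higher and 5.99% called lower (13.7% in either direction), so that the share of called genes does not set the tubulin genes apart. At an unadjusted p under 0.05, 3 of the 10 passed, beside 27.6% of all tested genes. The median difference of the 10 genes was 0.18, compared with -0.0029 over all tested genes. Without wild-type mouse 3, Tubb6, Tubb2b and Tuba1b were called higher, and 0 were called lower, where 9.34% of all tested genes were called higher and 8.13% lower (17.5% in either direction). With weights for each mouse, which give less weight to mice with large residuals, Tubb2a was called higher as well, 4 genes in all, beside 14.6% of all genes.

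**Figure D1:**
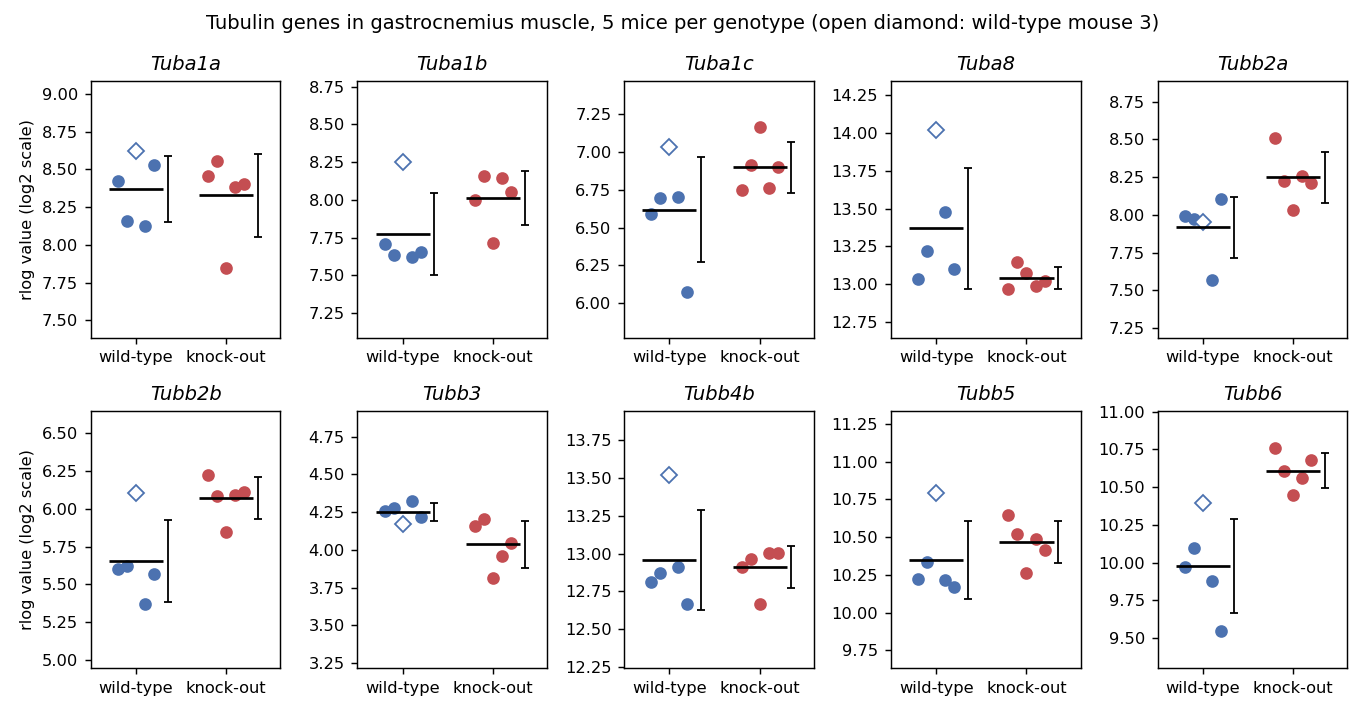
Deposited rlog values (log2 scale) of the 10 tubulin genes in each mouse, with desmin knock-out and wild-type mice side by side; points are mice, with the mean and SD of each genotype. The genotypes do not overlap for Tubb6 alone, and wild-type mouse 3 (open diamond) is the highest wild-type mouse for every gene but Tubb2a and Tubb3.

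Tubb6 (chromosome 18, 67390717 to 67402749, plus strand, GRCm38) codes for the class V beta tubulin, which is known to be raised in regenerating and dystrophic muscle and to disturb the microtubule grid when in excess. Its rlog values were 10.76, 10.60, 10.45, 10.56 and 10.68 in desmin knock-out mice 1 to 5 and 9.97, 10.09, 10.40, 9.87 and 9.55 in wild-type mice 1 to 5. Every knock-out mouse lay above every wild-type mouse, and the closest were knock-out mouse 3 and wild-type mouse 3. The means were 10.61 ± 0.12 and 9.98 ± 0.31 (SD, n = 5), a difference of 0.63 (SE 0.13, 95% interval 0.34 to 0.92, adjusted p = 0.00667, limma), or 1.55-fold on the rlog scale. An exact permutation test over the 10 mice gave a two-sided p of 0.00794, the smallest that 5 against 5 mice allow. The same lack of overlap, with the knock-out mice higher, was found in 7.45% of all tested genes. Without wild-type mouse 3 the difference was 0.74 (adjusted p = 0.00032, limma).

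Tubb2a and Tubb2b, which lie 48.7 kb apart on the minus strand of chromosome 13, code for class II beta tubulins best known from brain. Tubb2b (34126748 to 34130466) had values of 6.23, 6.09, 5.84, 6.09 and 6.11 in knock-out mice and 5.60, 5.62, 6.11, 5.37 and 5.57 in wild-type mice. The genotypes overlapped only through wild-type mouse 3, since all 5 knock-out mice lay above the other 4 wild-type mice. With all mice the difference of 0.42 (SE 0.14, interval 0.12 to 0.72) did not pass the adjusted test (adjusted p = 0.0635, limma), and without wild-type mouse 3 the difference of 0.53 did (adjusted p = 0.0052, limma). Tubb2a (34074274 to 34078007) had values of 8.51, 8.23, 8.03, 8.26 and 8.21 in knock-out mice and 7.99, 7.97, 7.95, 7.57 and 8.10 in wild-type mice. Here 4 of the 5 knock-out values were higher than any wild-type value. Its difference of 0.33 (SE 0.12, interval 0.07 to 0.59) did not pass either with all mice (adjusted p = 0.0931, limma) or without wild-type mouse 3 (0.34, adjusted p = 0.0786).

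Tubb4b, which had the highest level per length among the beta genes, and Tubb5 were not called. Tubb4b (chromosome 2, 25222160 to 25224702, minus strand), a broadly expressed class IV gene, had values of 12.91, 12.97, 12.67, 13.00 and 13.00 in knock-out mice and 12.81, 12.87, 13.52, 12.91 and 12.66 in wild-type mice. The ranges overlapped almost fully, with a difference of -0.05 (interval -0.36 to 0.26, adjusted p = 0.857, limma), whose sign turned without wild-type mouse 3 (0.09). Tubb5 (chromosome 17, 35833921 to 35838306, minus strand), the widely expressed class I gene, averaged 10.47 ± 0.14 in knock-out and 10.35 ± 0.26 in wild-type mice (SD, n = 5), with a difference of 0.12 (SE 0.12, interval -0.15 to 0.38). In Tubb5, too, wild-type mouse 3 was the highest of all mice, at 10.80. Without it the difference was 0.23 (adjusted p = 0.0688, limma).

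Tubb3 (chromosome 8, 123411424 to 123422015, plus strand), the class III gene used as a marker of neurons, was near the lower limit of the tested genes. Its values were 4.16, 4.20, 3.81, 3.96 and 4.05 in knock-out mice and 4.26, 4.28, 4.17, 4.32 and 4.22 in wild-type mice. Of the 5 knock-out mice, 4 lay below all wild-type mice. The difference of -0.21 (SE 0.11, interval -0.45 to 0.02) did not pass the test across genes (adjusted p = 0.225, limma), while the exact permutation test of this gene alone gave p = 0.0159. The same unadjusted permutation test gave p = 0.0159 for Tubb2a, 0.0317 for Tubb2b and 0.0556 for Tuba8. At this level the rlog transformation draws values strongly together, and the reads behind them are unknown.

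The alpha genes Tuba1b, Tuba1a and Tuba1c lie in this order on chromosome 15, with 15.3 kb between the ends of Tuba1b and Tuba1a and 76.2 kb between those of Tuba1a and Tuba1c. Tuba1b (98931425 to 98934565, minus strand), a broadly expressed alpha tubulin, had values of 8.00, 8.16, 7.71, 8.15 and 8.05 in knock-out mice and 7.71, 7.63, 8.25, 7.62 and 7.65 in wild-type mice. Wild-type mouse 3 was the highest of the 10, and the 5 knock-out mice lay above the other 4 wild-type mice. The difference was 0.24 with all mice (SE 0.14, interval -0.06 to 0.54, adjusted p = 0.288, limma) and 0.36 without wild-type mouse 3 (adjusted p = 0.0285, limma).

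Tuba1c (99029891 to 99038110, plus strand) ranged from 6.75 to 7.17 in knock-out and from 6.08 to 7.03 in wild-type mice. Its difference of 0.28 (SE 0.16, interval -0.06 to 0.62, adjusted p = 0.277, limma) was not called with all mice, nor without wild-type mouse 3 (0.38, adjusted p = 0.0876). Tuba1a (98949837 to 98953703, minus strand), the alpha tubulin of developing neurons, averaged 8.33 ± 0.28 and 8.37 ± 0.22 (SD, n = 5), with a difference of -0.04 (interval -0.36 to 0.27). Without wild-type mouse 3 its difference was 0.02. Tuba1a thus lay near 0 between positive estimates for its neighbours, and all 3 genes share long stretches of sequence. The annotated gene Gm49450, on the same strand, overlaps 26.2% of the exonic bases of Tuba1a and 22.7% of those of Tuba1b. It was listed at 0 in all mice. How reads in this overlap were counted is not given, which adds to the uncertainty of both levels.

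Tuba8 (chromosome 6, 121210696 to 121226854, plus strand) had values of 12.97, 13.15, 13.07, 12.99 and 13.02 in knock-out mice and 13.03, 13.22, 14.02, 13.47 and 13.10 in wild-type mice. Knock-out mice lay close together, with 3 of the 5 below every wild-type mouse and the others in the lower part of the wild-type range. The difference of -0.33 (SE 0.16, interval -0.67 to 0.02) was not called (adjusted p = 0.203, limma) and shrank to -0.17 without wild-type mouse 3 (adjusted p = 0.239). The annotated antisense gene Gm15856 overlaps 16.3% of the exonic bases of Tuba8, but at rlog values of 2.01 to 2.71 its level was far below.

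**Figure D2:**
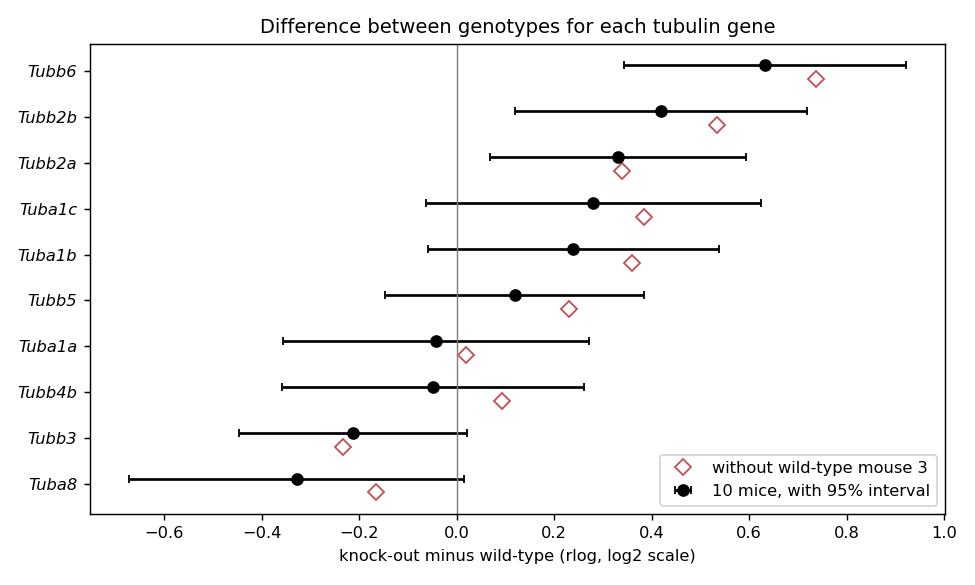
Difference between desmin knock-out and wild-type mice (rlog, log2 scale) for each tubulin gene with its 95% interval, from all mice and without wild-type mouse 3. The interval of Tubb6 runs from 0.34 to 0.92, and leaving out the mouse moves most of the other beta genes and the chromosome 15 alpha genes upwards.

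Pairs of tubulin genes were then compared within each mouse, since a factor that scales a whole mouse cancels in such a difference. Tubb6 minus Tubb5 was 0.14 ± 0.08 in knock-out and -0.37 ± 0.16 in wild-type mice (SD, n = 5), a shift of 0.51 (SE 0.08) with no overlap of the genotypes. The exact permutation test gave p = 0.00794 and an adjusted p of 0.0397 over the 5 pairs compared. Tubb5 minus Tubb4b shifted by 0.17 (SE 0.07, exact permutation p = 0.0556, adjusted 0.0926).
Tuba1a minus Tuba1b moved from 0.60 in wild-type to 0.32 in knock-out mice, a shift of -0.28 (SE 0.11, exact permutation p = 0.0238, adjusted 0.0595), which did not pass after adjustment but did without wild-type mouse 3 (-0.34, adjusted p = 0.0397). Tuba1b minus Tuba1c (-0.04, SE 0.19, exact permutation p = 0.857) and Tubb2a minus Tubb2b (-0.09, SE 0.12, exact permutation p = 0.508) were not found to shift, with standard errors that would hide a small one. Without wild-type mouse 3, Tubb2a minus Tubb2b differed between the genotypes by -0.19 (SE 0.07, exact permutation test, adjusted p = 0.0529).

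Levels were set side by side between genes only after division of the linear value by the exonic length, as a share of the class in each mouse. Among the 6 beta genes, Tubb4b held 79.3 ± 1.6% of the class in wild-type and 74.0 ± 1.6% in knock-out mice (SD, n = 5). Its share ranged from 77.8% to 81.5% in wild-type and from 71.6% to 75.4% in knock-out mice, so that the genotypes did not overlap although its rlog values did. The shares within a class are tied to each other, since a higher share of one gene lowers those of the others. The lower share of Tubb4b therefore does not show that its own level fell. Tubb6 took 8.64 ± 0.85% in wild-type mice, with a range of 7.76% to 9.71%, and 12.9 ± 0.76% in knock-out mice, with a range of 11.9% to 13.8%. In wild-type mice Tubb6 and Tubb5 (8.17 ± 0.43%) were close to each other, with overlapping ranges. Tubb6 lay above Tubb5 in every wild-type mouse but mouse 5 (7.76% against 8.76%). In knock-out mice Tubb6 lay above Tubb5 (8.56 ± 0.56%) in every mouse. Tubb2a followed with 3.80% in knock-out and 3.21% in wild-type mice, then Tubb2b with 0.589% and 0.458%, and Tubb3 was lowest with 0.177% and 0.216%. For Tubb2b the shares did not overlap either (0.572% to 0.634% against 0.392% to 0.521%), although its rlog values did and the gene was not called. The summed beta class stood at 102 ± 8.5% of the wild-type mean in knock-out mice, against 100 ± 24% in wild-type mice, where mouse 3 reached 141%. The difference in the beta sum was 1.97 percentage points with all mice and 13.7 points without this mouse. These shares follow from the same values as the gene tests and are a description of them. How often shares computed in this way separate the genotypes for other genes was not examined.

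**Figure D3:**
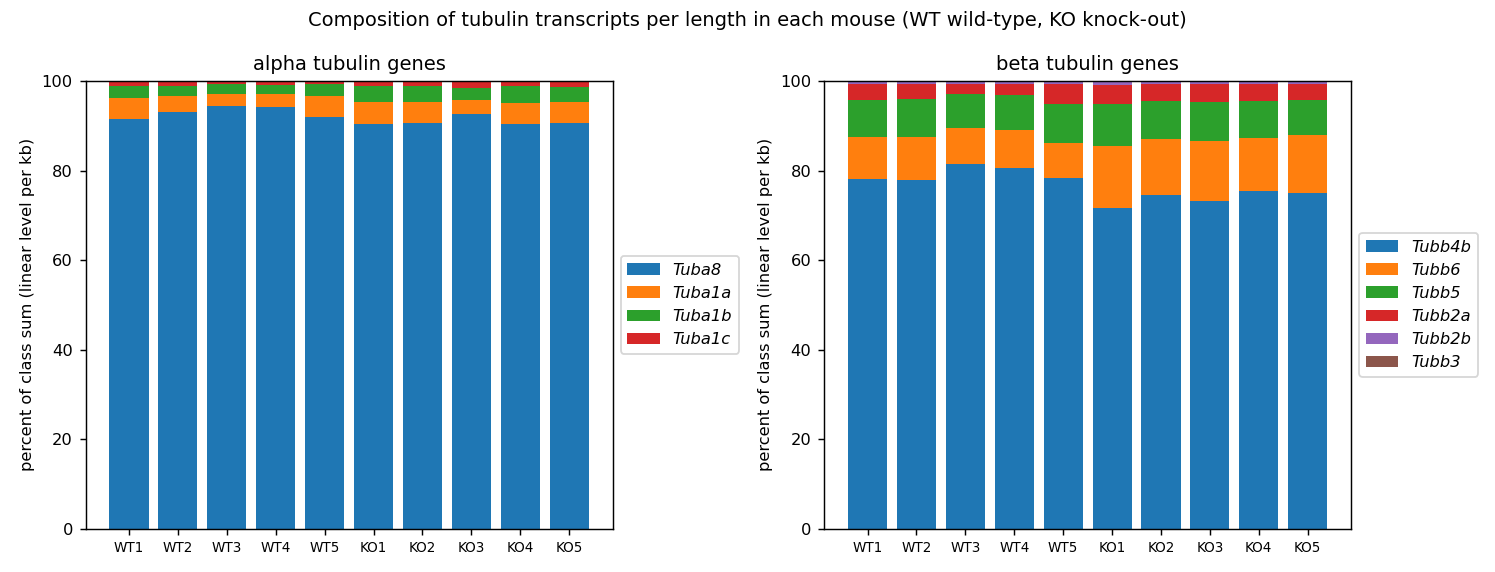
Share of each gene in the summed alpha (left) and beta (right) tubulin level of each mouse, in percent of the linear value per kb of exon. Tubb6 covers 11.9% to 13.8% of the beta class in the 5 knock-out mice and 7.76% to 9.71% in the 5 wild-type mice. Tuba8 fills most of the alpha sum shown in every mouse. This sum leaves out Tuba4a, which had a higher level per length than Tuba8.

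Among the 4 alpha genes, Tuba8 held 93.0 ± 1.3% in wild-type and 90.9 ± 0.97% in knock-out mice. Tuba1a followed with 3.75% and 4.41%, Tuba1b with 2.34% and 3.38%, and Tuba1c with 0.866% and 1.28%. The shares of Tuba1c did not overlap between the genotypes (0.699% to 1.04% in wild-type and 1.19% to 1.53% in knock-out mice), although its rlog values did and the gene was not called. Each of these shares also depends on the level of Tuba8, which makes up most of the sum. The order of the means was the same in both genotypes, and the ranges of Tuba1a and Tuba1b overlapped in knock-out mice (3.11% to 4.96% and 2.72% to 3.80%) but not in wild-type mice (2.80% to 4.85% and 1.97% to 2.76%). This order depends on how shared stretches are counted: with lengths limited to windows found in no other of the 10 genes, Tuba1b (9.06%) stood above Tuba1a (8.08%) in knock-out mice and Tuba1a (7.09%) above Tuba1b (6.47%) in wild-type mice. The summed alpha class lay between 75.7% and 85.5% of the wild-type mean in knock-out mice and between 78.0% and 150% in wild-type mice, of which mouse 3 had the highest value. Its difference was -20.9 percentage points with all mice and -9.51 points without this mouse. A further alpha gene, Tuba4a, is not one of the 10 but had the highest alpha level per length. When it was counted in, it held 65.0% of the class in wild-type and 61.8% in knock-out mice, and the share of Tuba8 was then 32.6% and 34.7%, so that the direction for Tuba8 turned.

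Of the 10 other genes listed as tubulins, 6 were tested and 0 were called in either direction (limma). At an unadjusted p under 0.05, 4 of them passed, where the share over all tested genes was 27.6%. All 6 had negative differences, also after median centring, after quantile normalization and without wild-type mouse 3, with a median of -0.36. Tuba4a had values of 14.55, 14.68, 14.37, 14.57 and 14.75 in knock-out mice and 14.90, 15.06, 15.99, 14.76 and 14.70 in wild-type mice, a difference of -0.50 (SE 0.21, adjusted p = 0.135, limma), which was -0.27 without wild-type mouse 3 (adjusted p = 0.0764). This gene lies 140 kb from Des on chromosome 1, and 37.3% of its exonic bases are shared with Stk16 on the other strand. Tubg1, the gamma tubulin that starts new microtubules, differed by -0.41 (adjusted p = 0.0872, and -0.26 without wild-type mouse 3) and Tubd1, the delta tubulin of centrioles, by -0.32 (adjusted p = 0.059, limma). In both genes every knock-out mouse lay below every wild-type mouse, which was the case for 6.97% of all tested genes. Without wild-type mouse 3, 1 of the 6 genes, Tubd1, was called lower, beside 8.13% of all tested genes.

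With all mice, the genes that fold and regulate tubulin were not called. Of the 21 folding genes, which code for the chaperonin CCT, prefoldin and the tubulin cofactors, 0 passed in either direction (limma), 3 had an unadjusted p under 0.05, against 27.6% of all tested genes, and the median difference was -0.02. The cofactor genes Tbcel (0.32, adjusted p = 0.088) and Tbcc (0.36, adjusted p = 0.127) and the chaperonin subunit gene Cct5 (-0.34, adjusted p = 0.119, and -0.20 without wild-type mouse 3) were nearest to the threshold. Without wild-type mouse 3, 1 folding gene was called higher, beside 9.34% of all tested genes. It was the cofactor gene Tbca (0.27, adjusted p = 0.0351, limma), which stood at 0.18 with all mice (adjusted p = 0.339). Of the 3 autoregulation genes 0 passed, and 0 had an unadjusted p under 0.05. Ttc5, whose protein reads the nascent tubulin start shown above, differed by 0.37 (SE 0.18, adjusted p = 0.205, limma) and by 0.17 without wild-type mouse 3, in which it was lowest.

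In the tyrosine cycle of alpha tubulin, 1 of the enzymes examined rose. Vash2, a vasohibin that removes the last tyrosine of alpha tubulin, rose from 6.04 ± 0.21 to 7.00 ± 0.12 (SD, n = 5), a difference of 0.96 (SE 0.12, adjusted p = 0.000149, limma). Its values in knock-out mice were 7.03, 7.15, 6.87, 7.05 and 6.89, and in wild-type mice 6.05, 5.90, 5.91, 6.41 and 5.95, with no overlap. Its relative Vash1 (-0.04, adjusted p = 0.909) and their binding partner Svbp (-0.13, adjusted p = 0.611) were not called, and neither was Ttl, the ligase that restores the tyrosine (0.29, adjusted p = 0.0696). Ttll7, which adds glutamates to beta tubulin, fell by 0.56 on the log2 scale (SE 0.16, adjusted p = 0.036, limma), a call that was kept in 7 of 17 alternatives (adjusted p up to 0.101). In all, 1 of 18 tested modification genes was higher and 1 lower, beside 7.7% and 5.99% of all tested genes. Without wild-type mouse 3, 1 was higher and 2 were lower, beside 9.34% and 8.13%.

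Among microtubule-associated proteins, 5 of 34 tested genes rose and 4 fell (limma), beside 7.7% and 5.99% of all tested genes. The median difference was -0.03. Without wild-type mouse 3, 5 rose and 6 fell, beside 9.34% and 8.13%. Map1b and Map1a, which bind along and stabilize microtubules, rose by 1.13 (SE 0.15, adjusted p = 0.000247) and 1.04 (SE 0.15, adjusted p = 0.000358). Map1b ranged from 9.77 to 10.51 in knock-out and from 8.61 to 9.28 in wild-type mice. Mid2, a microtubule-bound ubiquitin ligase, rose by 0.83 (SE 0.11, adjusted p = 0.000214, limma), whereas its paralog Mid1 fell by 0.55 (SE 0.14, adjusted p = 0.0201, limma).
Tppp3, a promoter of tubulin polymerization, rose by 0.78 (SE 0.14, adjusted p = 0.00172, limma), and Dclk1, a doublecortin-like kinase, rose by 0.91 (SE 0.21, adjusted p = 0.00958, limma). The other genes that fell were Stmn2, a stathmin that sequesters tubulin dimers (-0.66, adjusted p = 0.00194), Map7, which recruits kinesin-1 (-0.47, adjusted p = 0.00979), and Clip2, a plus-end protein (-0.47, adjusted p = 0.0343, limma). Map4, a broadly expressed microtubule-associated protein, was not called (0.11, SE 0.09). Mid1, Dclk1, Stmn2, Map7, Clip2 and Map4 are named here by choice after their values were known. The call of Clip2 was kept in 9 and that of Mid1 in 15 of 17 alternatives, without a change of sign.

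In the nucleation list, Nin was the 1 gene of 15 that rose, and 0 fell, beside 7.7% and 5.99% of all tested genes. Nin codes for ninein, which anchors microtubule minus ends at centrosomes and, in muscle, at the nuclear envelope. It lay between 10.69 and 10.95 in knock-out and between 9.93 and 10.12 in wild-type mice, a difference of 0.76 (SE 0.08, adjusted p = 4.48e-05, limma). Among the kinesin and dynein motors 1 of 25 rose and 1 fell, beside the same shares of all tested genes. Without wild-type mouse 3, 3 motor genes rose and 1 fell, beside 9.34% and 8.13%. Kif5c, a heavy chain of kinesin-1, the motor that walks towards microtubule plus ends, rose by 1.55 (SE 0.13, adjusted p = 3.27e-06, limma), from 6.14 ± 0.23 to 7.69 ± 0.12 (SD, n = 5). Its broadly expressed relative Kif5b differed by 0.48 (SE 0.17, adjusted p = 0.0847), and Kif1c, a kinesin-3, fell by 0.49 (SE 0.12, adjusted p = 0.0153, limma). Over the 7 lists beside the 10 genes, 8 of 122 tested genes rose and 6 fell, shares of 6.56% and 4.92% beside 7.7% and 5.99% of all tested genes. Without wild-type mouse 3, 11 were called higher and 10 lower, beside 9.34% and 8.13%.

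**Figure D4:**
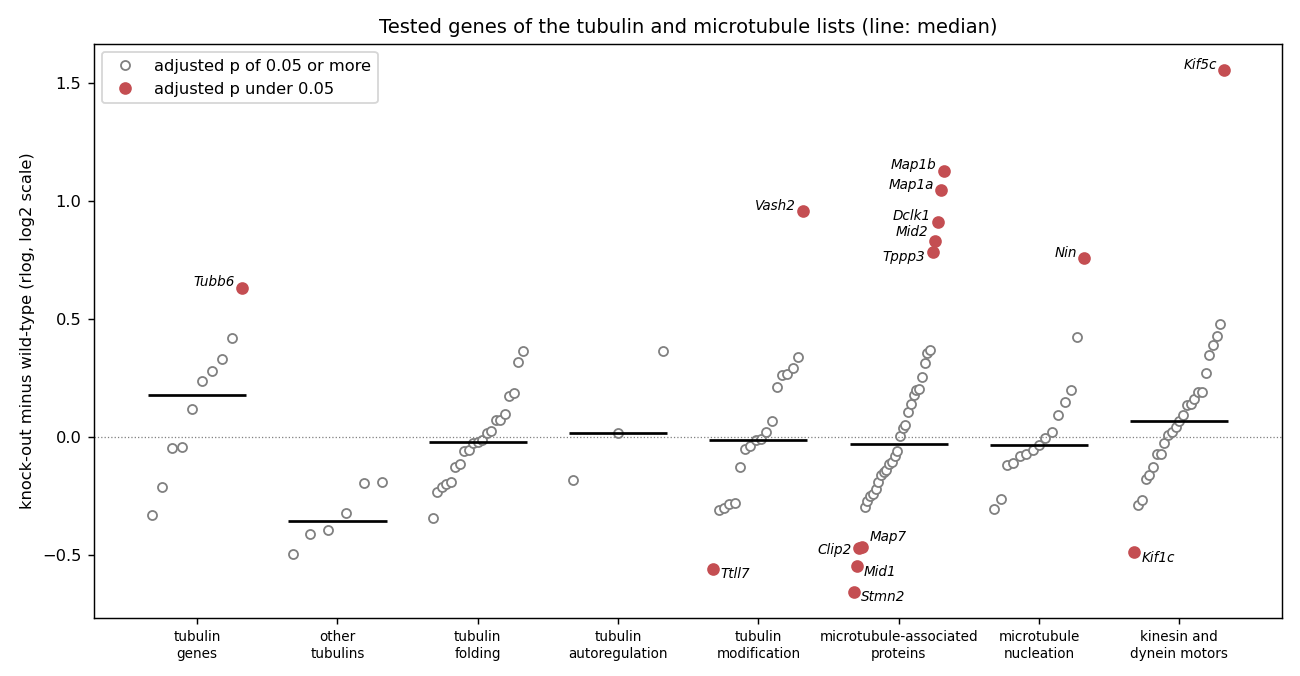
Difference between desmin knock-out and wild-type mice (rlog, log2 scale) for each tested gene of the tubulin and microtubule lists, with the median of each list as a line and genes with an adjusted p under 0.05 filled and named. Each list has its median within 0.18 of 0 apart from the other tubulins, whose 6 tested genes all lie below 0.

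Bulk RNA cannot tell fewer cells of a type from less RNA per cell, and several of these genes are expressed outside the muscle fiber. Immature fiber markers were therefore set beside them. Of the 10, 7 rose and 1 fell in knock-out mice (limma), beside 7.7% and 5.99% of all tested genes, with a median difference of 1.27. Without wild-type mouse 3, 8 rose and 0 fell, beside 9.34% and 8.13%. These shares over all tested genes also stand beside the counts of the marker lists that follow. Myh3, the embryonic myosin, rose by 2.25 and Mymk, the fusion protein myomaker, by 1.93. The summed level of this list, in which abundant genes weigh most, was 0.675 to 1.07 of the wild-type median in knock-out and 0.581 to 1.23 in wild-type mice. Of the proliferation markers 6 of 10 were tested and 2 rose, Kif11, a mitotic kinesin (1.77), and Birc5 (0.67). The summed level of all 10 was 1.53 to 2.64 against 0.913 to 1.01. Kif11 was the 1 marker of this list whose mean reached log2(50), so that it weighs most in the sum. Of 10 fibroblast markers 5 rose and 1 fell, with Postn at 1.95, and the summed levels were 1.15 to 1.76 against 0.832 to 1.56. Without wild-type mouse 3, 4 fibroblast markers rose and 1 fell.

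Endothelial markers moved the other way, with 0 higher and 5 of 8 lower, such as Vwf (-0.62), beside 7.7% and 5.99% of all tested genes. Their summed levels were 0.632 to 0.817 against 0.819 to 1.05. Without wild-type mouse 3, 4 endothelial markers were lower, beside 8.13% of all tested genes. For nerve, the known site of Tubb3, 0 of 8 tested Schwann cell and nerve markers were called and the sums overlapped (0.839 to 1.14 against 0.696 to 1.20). The same held for 10 macrophage markers (0 called, 0.806 to 1.11 against 0.782 to 1.04) and 6 adipocyte markers (0 called, 0.890 to 1.09 against 0.785 to 1.23). Of 8 smooth muscle and pericyte markers 1 rose and 1 fell (0.751 to 0.908 against 0.855 to 1.35), and of 5 erythroid markers 2 fell (0.587 to 0.888 against 0.836 to 2.17). Without wild-type mouse 3, 3 erythroid markers fell. No marker of any list was listed at 0 in all mice.
Of 12 mature muscle fiber markers 3 rose and 1 fell, beside 7.7% and 5.99% of all tested genes. Without wild-type mouse 3, 5 rose and 1 fell, beside 9.34% and 8.13%. The 12 markers summed to 0.786 to 0.897 in knock-out mice and 0.881 to 1.67 in wild-type mice. The top value of 1.67 belonged to wild-type mouse 3, the mouse with the highest Tuba8, Tubb4b, Tuba4a and Tubb5. The part of these cell types and of this mouse's make-up in the differences of the tubulin genes was not tested.

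The genes whose profile over the 10 mice was most like that of Tubb6, by the root mean square difference of centred values, were Zfp641 (0.113), Gm10516 (0.118), Tmem62 (0.125), Hsf2bp (0.130) and Tmem43 (0.133), where the median over all other tested genes was 0.439. For Tubb2b, the gene with the next smallest adjusted p, they were Tlcd1 (0.0892), Pld3 (0.107), Xbp1 (0.107), Tgfb3 (0.113) and Slc44a1 (0.115), beside a median of 0.360. The likeness is a description, with genotype as a part that all these profiles share.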

How the data were processed

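RNA-seq values of the gastrocnemius were used, with 5 mice of each genotype. The authors deposited DESeq2 regularized log (rlog) values, which are log2 values scaled for library size and shrunken towards each gene's mean. The submitters' processing notes name cutadapt 2.5, STAR 2.5.4a, Subread 1.6.1 with featureCounts, DESeq2 and the build GRCm38. The library kit was stranded, but the strand setting and the treatment of multi-mapping reads are not given in the sources used here. Counts were not used, so depth and counting error are unknown, and shrinkage makes differences smaller, most for weakly expressed genes. Symbols and coding regions were taken from GENCODE M21.

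Genes whose mean reached log2(10) entered a two-sided moderated test in limma 3.58.1 under R 4.3.3 (lmFit and eBayes with a trend), with Benjamini-Hochberg adjustment over 14289 genes. Single values were tested by exact permutation (scipy 1.17.1). The p-values set a difference between genotypes against the spread between columns, each taken as a mouse. Named were the 10 tubulin genes, Des, the top genes by adjusted p of each list (at most 4 for microtubule lists and 3 for marker lists), and the 5 most similar profiles for the 2 tubulin genes with the smallest adjusted p. Genes named beyond this rule were chosen after their values were seen: Tuba4a beside its share of the class, Vash1, Svbp and those given as such in the text. The tubulin genes, the lists and the tests were chosen with earlier results of these data known. Alternatives were a single prior variance, other expression limits, quantile normalization, median centring, the replicate number as a block, sample weights, each mouse left out, and an adjusted p under 0.01. Other ways of computing the shares were added with the values known. The coding ends of the other alpha genes are not reported here.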

Additional observations from a re-analysis of the deposited data

Results flagged for a closer look

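In 19 of 140 groups of 5 mice examined, 1 mouse lay far from the other 4 by Dixon's ratio at its 95% limit, where chance alone flags about 1 in 20 groups, or 7 of 140. Wild-type mouse 3 was that mouse in 12 of them. Among the tubulin genes it lay above the other wild-type mice in Tuba1b (8.25) and Tubb5 (10.80). Knock-out mouse 3 lay below the other knock-out mice in Tuba1a (7.85) and Tubb4b (12.67), and wild-type mouse 4 below the other wild-type mice in Tubb2a (7.57).

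Outside the 10 genes, wild-type mouse 3 was high in Des (17.74), Tuba4a (15.99), the chaperonin gene Cct5 (13.41), the gamma tubulin ring gene Tubgcp2 (10.44), the kinesin gene Kif1c (15.39), the slow troponin gene Tnnt1 (12.43) and the erythroid genes Alas2 (8.28), Hbb-bs (12.44) and Hbb-bt (10.21), and low in Ttc5 (6.82). Low values also stood out for Tubd1 in knock-out mouse 2 (8.44), for Scaper in wild-type mouse 4 (8.08), and for Col1a2 (11.33) and Kcnj8 (7.62) in knock-out mouse 3.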

How the results depend on the processing

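Tubb6 kept its call in all 17 alternatives, with differences of 0.52 to 0.74 and adjusted p-values of 3.04e-05 to 0.0225 (limma). Tubb3 could not be tested with the limit of log2(50). The number of tubulin genes called higher was 4 with sample weights, which added Tubb2b, Tuba1b and Tubb2a (background 14.6%), and ranged from 1 to 3 with a mouse left out, with 3 reached without wild-type mouse 3. With sample weights Tuba1a was at 0.051 and Tubb4b at 0.12, and with quantile normalization Tubb4b was at 0.031. With a mouse left out Tuba1a ranged from -0.10 to 0.077, Tubb4b from -0.12 to 0.093, Tuba1b minus Tuba1c from -0.11 to 0.10, Tubb6 minus Tubb5 from 0.45 to 0.55 and Tuba1a minus Tuba1b from -0.34 to -0.21. With 9 mice the smallest adjusted p over the 5 pairs is 0.0794 unless several pairs reach the lowest p, and without wild-type mouse 3 Tuba1a minus Tuba1b had an adjusted p of 0.0397 (exact permutation). Of the 122 other microtubule genes tested, 19 were called higher and 19 lower with sample weights, beside 2093 and 2127 of all 14289 tested genes. With a mouse left out, 8 to 11 were called higher and 4 to 10 lower, with 10 lower without wild-type mouse 3. Over all tested genes these counts were 833 to 1335 higher and 560 to 1161 lower. The knock-out minus wild-type share of Tuba8 in the alpha class was 2.16 percentage points with Tuba4a counted in and -4.56 points over windows found in no other member, against -2.11. Same-numbered mice share only a number (correlations of their deviations -0.219 to 0.0673, 0 of 5 mice closest to their own number), and with the number as a replicate block 1 tubulin gene was called, Tubb6 (adjusted p = 0.0153, limma), with 913 genes higher and 666 lower instead of 1100 and 856. The cause of these changes was not tested. Depth and counting error are unknown, which limits Tubb3 most.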
